A study of Homo sapiens with 17 samples.

Results

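Interferon-stimulated genes (ISGs) are described here in Ishikawa cells, a human endometrial epithelial adenocarcinoma line, with and without progesterone (P4). The members were 43 genes of the interferon response, named by symbol as interferon-stimulated and interferon-signalling genes and not chosen by a threshold on their values, out of 60662 genes in the count table. The study tested the hypothesis that microRNAs specific to placental mammals, with their targets, help to make the endometrium receptive. As one step it looked for transcripts that change with P4 in endometrial epithelial cells. The RNA of 17 cultures was sequenced as total RNA. The labels put 11 cultures in 4 groups, all kept for 24 h in medium with charcoal-stripped serum. There were 3 control cultures in medium alone, 3 vehicle control cultures that received Nap together with ethanol, 2 Nap only cultures, and 3 P4 cultures that received progesterone in the Nap vehicle. The labels do not spell out Nap, name 70% ethanol as the vehicle and do not name ethanol for the P4 cultures, so P4 cultures are also set against the control and Nap only cultures, which received no ethanol. The treatment text of the labels lists both 0.1 and 1.0 mg/ml without saying which was sequenced. The study's results and figure legends state that cells given its highest concentration were sequenced, and they name that concentration in μg/ml. The remaining 6 cultures all received recombinant PSAT1 but their sample titles and column headers contradict each other on P4, so they entered no comparison. All groups were of one cell line, and the labels number the cultures as biological replicates without saying how they were started.

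Interferons bind receptors at the cell surface, and the JAK kinases behind these receptors phosphorylate STAT proteins. A complex that holds STAT2 and IRF9 binds the interferon-stimulated response element of ISG promoters, and the gamma-activated site is the element known from the response to type II interferon. The products block virus entry, replication and release, sense viral RNA, or attach ubiquitin-like ISG15 to proteins. In the endometrium, ISGs are known to respond to conceptus interferon in ruminants and to vary over the menstrual cycle in women.

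Against the vehicle control, IFI44L, SAMD9, BTN3A2 and IFIT1 were among the members with the largest differences, all lower in the P4 cultures by edgeR's quasi-likelihood test. IFI44L, SAMD9 and BTN3A2 passed the expression filter mainly through the vehicle control, so they are no support for a direction of the list. Of 16 effector genes tested, 11 were called lower and 0 higher, where 26.5% and 26.6% of all genes tested were called so. However, 6 of the 16 passed that filter mainly through the vehicle control, SAMD9 and IFI44L among them. Among the transcription factors STAT2 was higher and IRF7 was not called, while the calls of IRF1 as higher and IRF9 as lower were lost in DESeq2. HERC5 and BTN3A3 were higher, while BTN3A1 and BTN3A2, relatives of BTN3A3, were lower. HERC6, a relative of HERC5, was also called lower, but its groups overlapped and the call was lost in DESeq2. BTN3A1 and BTN3A2 passed the filter mainly through the vehicle control, and the split of reads among the BTN3A paralogs is uncertain. Without any P4, 7 of 34 tested members were called lower in the vehicle control than in the control, among them DDX60 and the IFIT genes IFIT1, IFIT2 and IFIT3, where 10.7% of all genes were called so.

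The promoters of 7 members that these results turn on are shown from the RefSeq table of GRCh38.p14, each from 250 bases before to 50 bases after the transcription start and written on the strand of the gene. IFIT1, IFI44L and SAMD9 are members lower with P4, and HERC5 is a member higher with P4. DDX60 is the member that differed most clearly with the vehicle. BTN3A2 and BTN3A3 are paralogs of one cluster that differed in opposite directions. Capitals mark matches to the core of the interferon-stimulated response element, searched as GAAANNGAAA on both strands, so that a match on the other strand appears as its reverse complement here, and overlapping matches run together.
IFIT1, chr10:89392373-89392672, plus strand: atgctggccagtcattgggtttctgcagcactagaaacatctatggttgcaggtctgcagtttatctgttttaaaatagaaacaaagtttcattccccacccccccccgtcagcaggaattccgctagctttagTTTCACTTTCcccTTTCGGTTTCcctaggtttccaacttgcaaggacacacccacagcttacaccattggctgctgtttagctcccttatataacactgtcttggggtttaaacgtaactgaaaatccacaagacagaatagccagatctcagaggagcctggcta
IFI44L, chr1:78620198-78620497, plus strand: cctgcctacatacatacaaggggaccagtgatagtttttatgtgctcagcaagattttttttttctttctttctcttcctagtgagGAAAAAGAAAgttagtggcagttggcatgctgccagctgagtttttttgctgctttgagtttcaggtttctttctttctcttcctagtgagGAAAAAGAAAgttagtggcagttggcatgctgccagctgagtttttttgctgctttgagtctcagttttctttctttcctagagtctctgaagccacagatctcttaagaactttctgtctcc
SAMD9, chr7:93117930-93118229, minus strand: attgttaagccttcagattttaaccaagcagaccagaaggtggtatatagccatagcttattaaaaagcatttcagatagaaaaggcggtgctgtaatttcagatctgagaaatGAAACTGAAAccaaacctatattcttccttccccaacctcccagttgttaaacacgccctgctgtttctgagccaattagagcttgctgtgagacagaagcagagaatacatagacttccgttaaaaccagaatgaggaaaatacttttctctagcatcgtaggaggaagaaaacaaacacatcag
DDX60, chr4:168318703-168319002, minus strand: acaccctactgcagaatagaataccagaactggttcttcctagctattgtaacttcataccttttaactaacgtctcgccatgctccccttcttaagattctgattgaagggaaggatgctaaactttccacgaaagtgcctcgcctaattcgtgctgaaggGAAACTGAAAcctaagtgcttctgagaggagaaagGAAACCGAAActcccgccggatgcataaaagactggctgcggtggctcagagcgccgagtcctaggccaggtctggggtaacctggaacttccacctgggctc
HERC5, chr4:88456869-88457168, plus strand: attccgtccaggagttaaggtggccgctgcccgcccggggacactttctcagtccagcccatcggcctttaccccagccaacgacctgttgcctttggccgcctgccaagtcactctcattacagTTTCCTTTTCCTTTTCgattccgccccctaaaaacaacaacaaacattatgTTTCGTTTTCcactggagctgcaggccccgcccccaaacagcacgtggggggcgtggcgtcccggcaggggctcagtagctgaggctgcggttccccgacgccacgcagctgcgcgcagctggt
BTN3A2, chr6:26364948-26365247, plus strand: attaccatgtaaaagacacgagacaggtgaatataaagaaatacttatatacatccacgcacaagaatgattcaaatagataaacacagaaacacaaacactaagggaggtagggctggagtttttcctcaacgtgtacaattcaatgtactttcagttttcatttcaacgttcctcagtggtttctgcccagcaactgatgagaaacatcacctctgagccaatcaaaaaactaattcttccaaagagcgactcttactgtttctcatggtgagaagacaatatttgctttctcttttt
BTN3A3, chr6:26440254-26440553, plus strand: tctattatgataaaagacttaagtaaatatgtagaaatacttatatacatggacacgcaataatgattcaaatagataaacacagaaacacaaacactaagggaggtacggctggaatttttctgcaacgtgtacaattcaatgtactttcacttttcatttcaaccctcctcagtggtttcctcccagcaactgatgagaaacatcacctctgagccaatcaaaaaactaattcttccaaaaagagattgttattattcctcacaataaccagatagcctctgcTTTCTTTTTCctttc

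A promoter was given for 35 of the 43 members, and IFIT2, IFITM2, MX2, OAS2, OASL, IRF7, USP18 and BTN3A1 had none in the table. The response element core was found in 24 of the 35 member promoters (68.6%), against 1255 of all 35116 promoters of the same length (3.57%). Counting only matches that lie wholly before the start, it was found in 19 members (54.3%). The match was present in 8 of 12 promoters of members lower with P4 (66.7%), in 2 of 4 of those higher (50.0%), in 8 of 9 of those not called (88.9%) and in 6 of 10 of those not tested (60.0%). Members of every class thus held the match, and these shares describe letters, not binding. The gamma-activated site, searched as TTCNNNGAA on both strands, was found in 9 of 35 member promoters (25.7%) and in 2689 of all promoters (7.66%).

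IFIT1 carried matches that begin at -116 and -103 bases from the start, and SAMD9 carried 1 at -136. The matches of IFI44L, at -164 and -73, lay inside an exact repeat of 85 bases whose copies begin at -189 and -98, so they are copies of one stretch. HERC5, which was higher with P4, had 3 matches, at -125, -119 and -74, of which the first pair overlap. The promoters of BTN3A2 and BTN3A3 had 83.0% identical columns in a global alignment of 305 columns, 10 of them gaps. BTN3A2 had no match in this window, and BTN3A3 had 1 at 36 bases after the start.

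**Figure D1:**
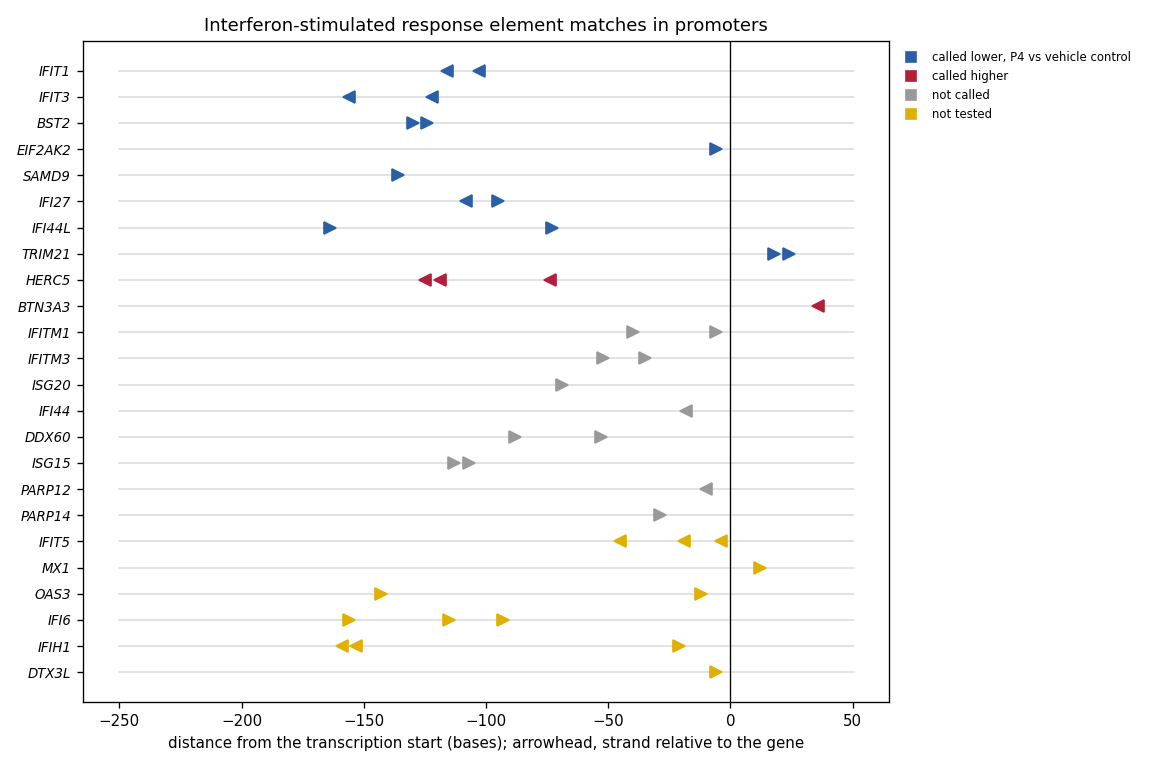
Positions of response element core matches in the promoters of the 24 members that hold one, by distance from the transcription start in bases. Arrowheads point right for the strand of the gene and left for the other strand, colours give the call in P4 against vehicle control, and members of all 4 classes have matches within 250 bases of the start.

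Library totals ran from 4999521 counts in vehicle control replicate 1 to 19704493 in a control culture, and the P4 cultures had 10786880 to 14095023. Levels are given as CPM, read counts scaled to the library total with factors from the trimmed mean of M values (TMM), and 3 counts were worth 0.228 to 0.284 CPM in the P4 cultures and 0.221 to 0.559 CPM in the vehicle controls. Such floors, and the counting intervals given with single ratios, cover counting error only. All 9 epithelial markers had counts and summed to 1230 to 1270 CPM in vehicle control and 967 to 1110 CPM in P4 cultures, with 4 called lower and 2 higher. The 7 endometrial markers summed to 786 to 814 CPM and 596 to 640 CPM, with 4 called lower and 0 higher, among them PGR, the progesterone receptor, at 57.0 and 21.4 CPM. The 7 immune markers summed to 0.379 to 1.85 CPM in the 11 cultures, with 3 of them over 3 counts in a culture. Of 5 plasmacytoid dendritic cell markers, TCF4 alone had over 3 counts in any culture. Stromal markers, which this line expresses at a level set mainly by COL1A2, summed to 338 to 360 CPM in vehicle control and 125 to 177 CPM in P4 cultures, and the part of these marker differences in the results below was not tested. In bulk RNA, fewer cells that express a gene and less RNA per cell cannot be told apart.

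The 43 members spanned a wide range of levels in the control cultures. On the scale of CPM per kb of exon, ADAR was highest at 31.4, followed by STAT2 at 16.0, EIF2AK2 at 12.9, IFITM3 at 11.6 and DDX58 at 6.73. Only 6 members had a mean of at least 10 CPM, 25 lay between 1 and 10 CPM, and 12 were under 1 CPM, with a median of 1.94 CPM over the members. The summed level of the 43 members was 675 to 697 CPM in control, 670 to 707 CPM in Nap only, 605 to 664 CPM in vehicle control and 568 to 590 CPM in P4 cultures, and these sums are set mostly by ADAR, EIF2AK2 and STAT2. MX2, OAS1, OAS2, OAS3, SAMD9L, PARP9 and DTX3L had at most 3 counts in every one of the 17 libraries. Thus several genes that mark a full interferon response, such as OAS1 and MX2, were at or near 0 in every group of this line. None of the 21 interferon genes was tested, and IFNE alone, with 9 counts in one vehicle control culture, exceeded 3 counts in a grouped library.

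**Figure D2:**
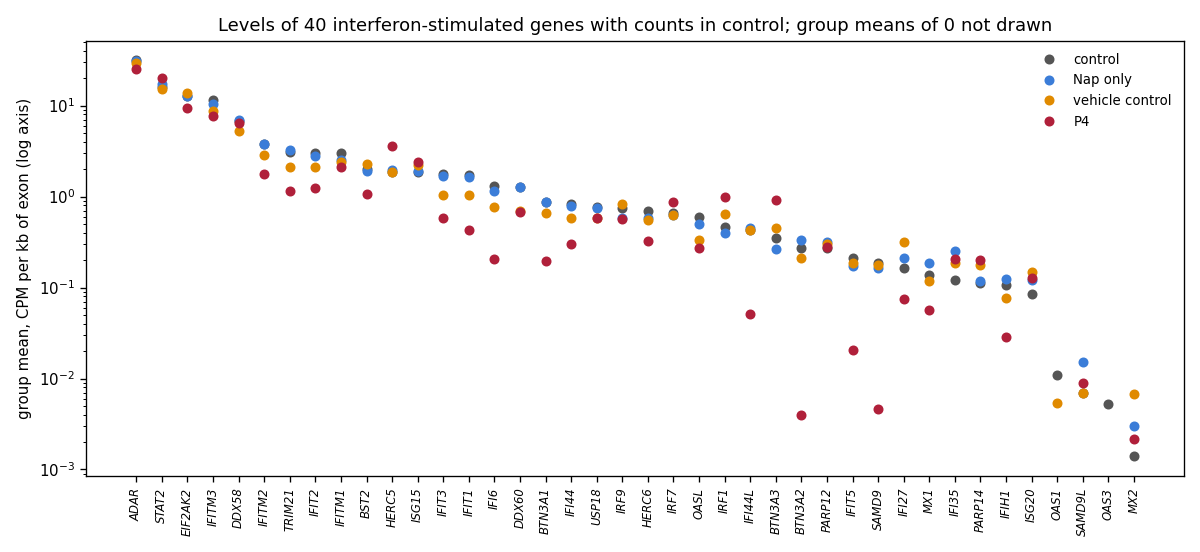
Group means of 40 members with counts in the control, in CPM per kb of exon on a log axis, ordered by the control mean. The levels run from 31.4 for ADAR down to values at the counting floor, and the P4 points of BTN3A2, SAMD9, IFIT5 and IFI44L lie well under those of the other groups.

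In P4 against vehicle control, 31 members were tested, 15 were called lower, 4 higher and 12 were not called, at an adjusted p under 0.05. Over all 16540 genes tested, 26.5% were called lower and 26.6% higher, so calls were common in this comparison. Of the members tested, 15 had P4 cultures that all lay under the vehicle controls and 4 that all lay above, where 29.7% and 30.2% of all genes did so. A log2 difference beyond 1 was called lower for 7 members and higher for 0, against 7.03% and 5.34% of all genes tested. The median log2 fold change was -0.27 over the members tested and -0.01 over all genes. Of the 31 members, 8 had a P4 culture under the 0.791 CPM that the expression filter asks of 3 libraries and none had a vehicle control culture under it, so OASL, BST2, SAMD9, IFI27, IFI44, IFI44L, BTN3A1 and BTN3A2 passed mainly through the vehicle control. The counts and the median over the members tested are therefore not read as support for a direction. Among the 21 members with at least 10 counts in all 6 cultures, 10 were called lower and 4 higher, where 7875 of 13901 genes that met the same requirement were called, 3959 of them higher.

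**Figure D3:**
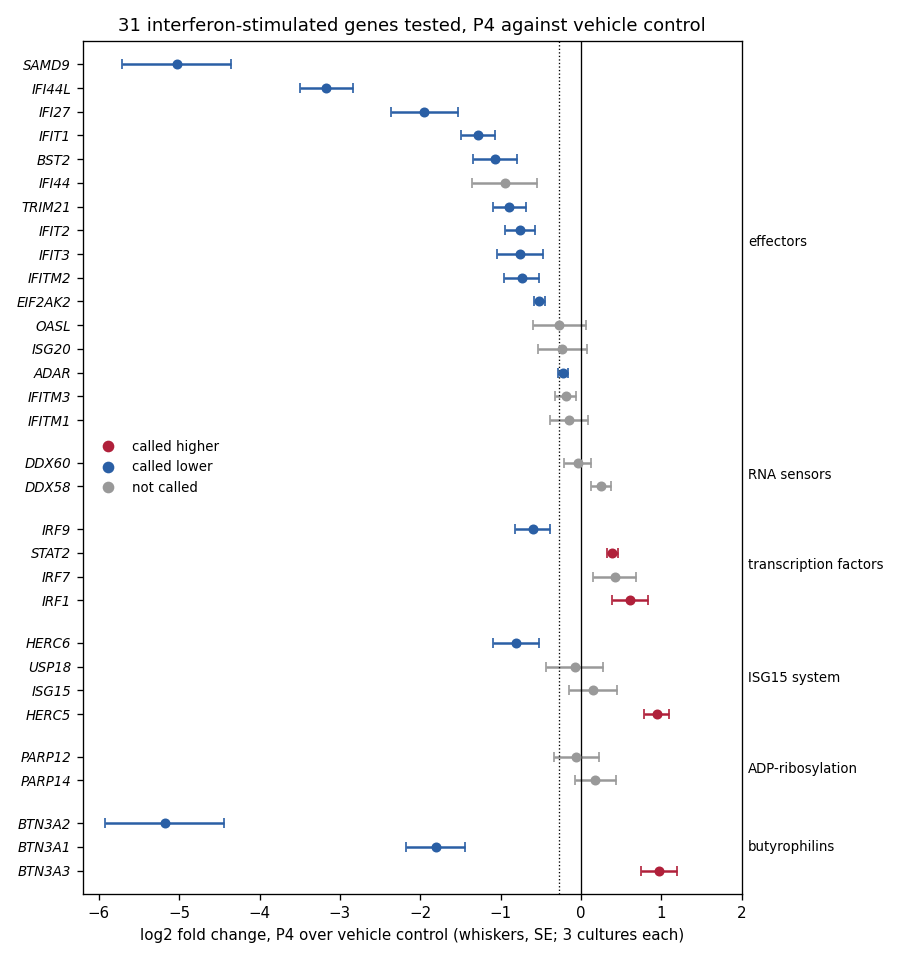
Log2 fold change of P4 over vehicle control, with standard error, for the 31 members tested, grouped by role. Blue members were called lower, red higher and grey not called, and the dotted line marks the median of -0.27.

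The IFIT genes, whose products bind viral RNA and hold back its translation, lie together on chromosome 10. IFIT1 (chr10:89392546-89406486) was at 4.47, 4.94 and 4.83 CPM in the vehicle controls and at 2.37, 1.77 and 1.82 CPM in the P4 cultures. All 3 P4 cultures lay under all 3 vehicle controls, and IFIT1 fell by 1.28 on the log2 scale (SE 0.21, adjusted p = 2.4e-04). IFIT2 had 9.50, 8.48 and 8.21 CPM in vehicle control against 6.15, 3.55 and 5.62 CPM with P4, again without overlap (log2 fold change -0.76, SE 0.19, adjusted p = 0.0055). IFIT3 went from 3.73, 2.65 and 1.93 CPM to 1.23, 1.60 and 1.75 CPM, a log2 fold change of -0.76 (SE 0.29, adjusted p = 0.0427). The call of IFIT3 was lost when any one of 5 cultures was left out (each P4 culture and vehicle control replicates 1 and 2), with log2 fold changes of -0.99 to -0.57 over all such fits, and also in DESeq2 (adjusted p = 0.136) and without the filter. IFIT5 was not tested against the vehicle control, since its counts were 3, 11 and 11 there and 1, 0 and 2 in the P4 cultures. Its scaled ratio of vehicle control to P4 was 9.46, with an exact 95% counting interval of 2.89 to 48.9 that does not include the spread between cultures.

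SAMD9, a cytoplasmic protein that restricts poxviruses, was almost absent from the P4 cultures. Its counts were 5, 18 and 17 in the vehicle controls and 1, 0 and 0 with P4, which corresponds to 0.932, 1.33 and 1.37 CPM against 0.0947, 0 and 0 CPM. The scaled ratio of vehicle control to P4 was 45.4 (exact 95% counting interval 7.69 to 1837), and the fitted log2 fold change of -5.03 (SE 0.68, adjusted p = 6.1e-05) depends on the prior count and was -6.85 without P4 replicate 1. In control and Nap only cultures SAMD9 was at 0.975 to 1.64 CPM, so the vehicle control was not apart from them.

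IFI44L, an interferon-induced gene that restrains the response itself, had 3.17, 5.16 and 4.99 CPM in the vehicle controls and 0.757, 0.507 and 0.304 CPM with P4. These cultures were well apart (log2 fold change -3.17, SE 0.33, adjusted p = 6.8e-06), and the control cultures at 3.28, 5.07 and 4.80 CPM resembled the vehicle controls. Its neighbour IFI44 had 1.30, 0.885 and 1.37 CPM in vehicle control and 0.947, 0.422 and 0.455 CPM with P4. For IFI44 the groups overlapped in 1 P4 culture and the difference was not called (log2 fold change -0.95, SE 0.40, adjusted p = 0.0637). It was called without P4 replicate 1, with a log2 fold change of -1.37.

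IFI27, a mitochondrial interferon-induced protein, was at 1.68, 1.33 and 0.886 CPM in the vehicle controls and at 0.284, 0.338 and 0.304 CPM in the P4 cultures, or 3 to 4 counts each. The log2 fold change was -1.95 (SE 0.42, adjusted p = 0.00182), but the control cultures stood at 0.710, 0.634 and 0.675 CPM, between both groups. BST2, the tetherin that holds budding virions at the membrane, had 2.42, 2.65 and 2.50 CPM in vehicle control and 1.42, 0.845 and 1.37 CPM with P4. These groups did not overlap (log2 fold change -1.07, SE 0.27, adjusted p = 0.00486), whereas the control cultures at 1.58, 3.38 and 1.80 CPM spread across the vehicle control.

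Among the more abundant effectors the differences were smaller. EIF2AK2, the RNA-dependent kinase PKR, was at 139, 146 and 153 CPM in the vehicle controls and at 110.0, 95.0 and 102 CPM with P4, a log2 fold change of -0.52 (SE 0.07, adjusted p = 7.1e-05). ADAR, the RNA-editing adenosine deaminase, was at 262, 292 and 295 CPM against 239, 242 and 253 CPM. Although its groups did not overlap, the log2 fold change was only -0.22 (SE 0.06, adjusted p = 0.00973), and the call was lost without vehicle control replicate 2 or replicate 3, with log2 fold changes of -0.25 to -0.20 over the fits that leave out 1 culture. TRIM21, a cytosolic antibody receptor, was lower by a log2 fold change of -0.89 (SE 0.21, adjusted p = 0.00342), from 4.08 ± 0.526 to 2.20 ± 0.0734 CPM (SD, n = 3 each).

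The IFITM genes, which hinder the fusion of virus with endosomal membranes, are near-identical neighbours on chromosome 11, and the annotated spans of IFITM1 and IFITM2 share an end, so reads counted to one may belong to another or be left out. IFITM2 was lower with P4, from 4.39 ± 1.06 to 2.75 ± 0.337 CPM (SD, n = 3 each; log2 fold change -0.74, SE 0.22, adjusted p = 0.0119), a call lost without vehicle control replicate 2 or replicate 3, where the log2 fold change stayed between -0.85 and -0.63. IFITM1 (log2 fold change -0.15, adjusted p = 0.607) and IFITM3 (log2 fold change -0.19, adjusted p = 0.243) were not called. OASL, an oligoadenylate synthetase-like protein, at 1.17 CPM and 0.964 CPM, and ISG20, an exonuclease, at 1.09 CPM and 0.926 CPM in vehicle control and P4, were not called either (adjusted p = 0.519 and 0.596). MX1, a dynamin-like GTPase, and IFI6 were not tested in this comparison, with 3, 17 and 15 counts of MX1 in vehicle control and 8, 2 and 7 with P4, and with 2, 9 and 12 counts of IFI6 against 3, 3 and 0. IFI35 had 3 to 6 counts in each of these 6 cultures and was tested nowhere.

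The RNA sensors did not differ in this comparison beyond their spread. DDX58, which encodes RIG-I, was at 21.2, 25.4 and 22.3 CPM in the vehicle controls and 23.6, 32.9 and 26.8 CPM with P4. These values overlapped (log2 fold change 0.25, SE 0.12, adjusted p = 0.107), and the difference was called without P4 replicate 1, at 0.35. DDX60, a helicase that aids RIG-I, had 4.66, 4.50 and 4.83 CPM against 4.64, 4.48 and 4.55 CPM (log2 fold change -0.04, SE 0.17, adjusted p = 0.865). IFIH1, which encodes MDA5, had 1, 7 and 6 counts in vehicle control and 2, 2 and 1 with P4 and was too low to test.

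Of the 4 transcription factors, STAT2 alone kept a call in all alternatives. STAT2, a subunit of the interferon-activated complex, was at 93.2, 92.1 and 94.5 CPM in the vehicle controls and 115, 128 and 125 CPM with P4. STAT2 rose without overlap, by 0.39 on the log2 scale (SE 0.07, adjusted p = 3.4e-04). IRF9, the DNA-binding subunit of the same complex, had 2.61, 3.32 and 3.46 CPM in vehicle control and 1.80, 2.45 and 2.13 CPM with P4. It was called lower by a small margin (log2 fold change -0.60, SE 0.22, adjusted p = 0.0394), and the call was lost without vehicle control replicate 2 or 3 or without P4 replicate 1 or 3, at log2 fold changes of -0.58 to -0.50, and it was also lost in DESeq2 (adjusted p = 0.237), without the filter and with all 4 groups in one fit.

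IRF1, a factor that drives ISGs also without STAT2, was at 4.85, 5.23 and 4.83 CPM in the vehicle controls and 5.49, 10.3 and 7.06 CPM in the P4 cultures. All P4 cultures lay above the vehicle controls but they spread widely (log2 fold change 0.61, SE 0.22, adjusted p = 0.0332). The call of IRF1 was lost in DESeq2 (adjusted p = 0.0505) and with upper-quartile scaling, without any one of the vehicle controls and without P4 replicate 2 or 3, with log2 fold changes from 0.34 without P4 replicate 2 to 0.79 without P4 replicate 1. IRF7, which amplifies interferon transcription, had 1.30, 2.06 and 1.53 CPM against 1.80, 2.53 and 2.51 CPM, which overlapped and were not called (log2 fold change 0.42, SE 0.27, adjusted p = 0.199).

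In the ISG15 system, both HERC ligases of the list were called and in opposite directions. HERC5, the main ligase that joins ISG15 to proteins, was at 7.27, 8.48 and 10.7 CPM in the vehicle controls and 15.1, 19.2 and 17.8 CPM with P4. The groups were far apart (log2 fold change 0.94, SE 0.15, adjusted p = 1.8e-04). HERC6, its neighbour on chromosome 4, had 2.42, 3.39 and 3.70 CPM against 2.56, 1.10 and 2.05 CPM. The groups of HERC6 overlapped although it was called lower (log2 fold change -0.81, SE 0.29, adjusted p = 0.0315), and the call was lost without vehicle control replicate 2 or 3 or P4 replicate 2 or 3, at log2 fold changes of -1.05 to -0.53 over all fits with 1 culture left out. ISG15 itself, at 2.10 ± 0.498 and 2.27 ± 0.755 CPM (SD, n = 3 each), and USP18, the protease that removes it, at 1.25 ± 0.592 and 1.23 ± 0.0832 CPM, were not called (adjusted p = 0.689 and 0.863). The ADP-ribosyltransferases PARP12 (log2 fold change -0.06) and PARP14 (log2 fold change 0.18) were not called, while PARP9 and its partner DTX3L, a ubiquitin ligase, were too low to test.

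The butyrophilins of subfamily 3A, which present phosphoantigen signals to gamma delta T cells and are interferon-inducible, form a cluster on chromosome 6. BTN3A2 (chr6:26365159-26378320) had 10, 23 and 11 counts in the vehicle controls and 0, 1 and 0 in the P4 cultures, or 1.86, 1.70 and 0.886 CPM against 0, 0.0845 and 0 CPM. Its scaled ratio of vehicle control to P4 was 49.9 (exact 95% counting interval 8.51 to 2016), and the fitted log2 fold change of -5.18 (SE 0.74, adjusted p = 9.7e-05) depends on the prior count and was -6.97 without P4 replicate 2. BTN3A1 (chr6:26402237-26415216) was at 3.17, 4.35 and 3.54 CPM in the vehicle controls and 1.89, 0.338 and 1.06 CPM with P4, a log2 fold change of -1.81 (SE 0.37, adjusted p = 0.0014). BTN3A3 (chr6:26440472-26453415) went the other way, from 2.24, 3.17 and 2.25 CPM to 5.40, 4.22 and 5.85 CPM. No culture of BTN3A3 overlapped between groups, and the log2 fold change was 0.97 (SE 0.22, adjusted p = 0.00263). These 3 genes are close paralogs and reads were kept only where they mapped uniquely, so the split of reads among them is uncertain. Their summed level was 6.68 to 9.22 CPM in vehicle control and 4.65 to 7.29 CPM with P4, which overlapped.

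**Figure D4:**
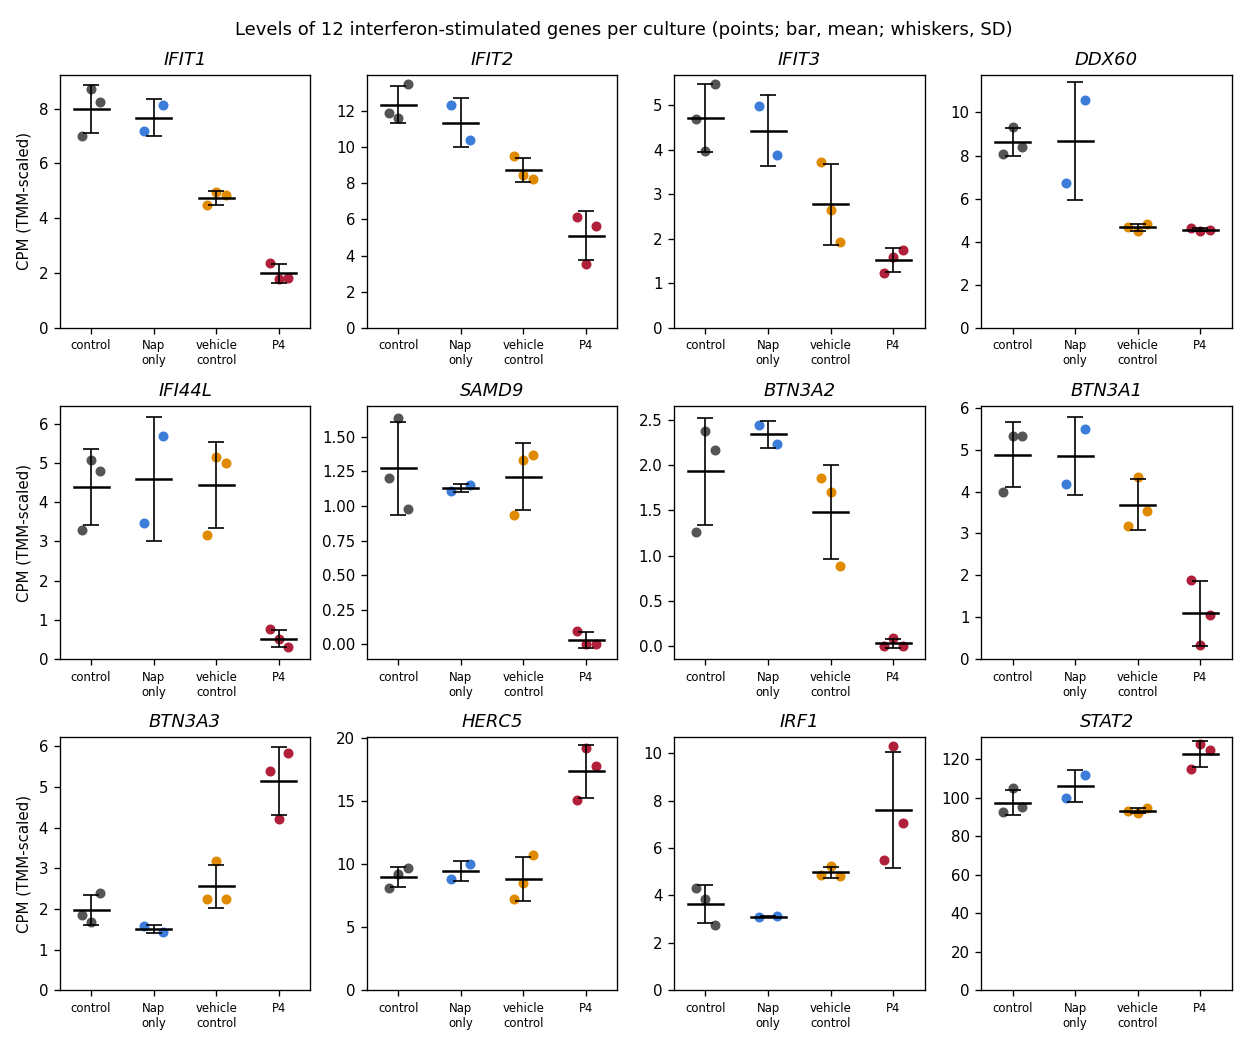
TMM-scaled CPM of 12 members in each of the 11 grouped cultures, with the group mean and SD. IFI44L, SAMD9 and BTN3A2 are under 1 CPM in all P4 cultures, and SAMD9 and BTN3A2 at or near 0, IFIT1 is lower in the vehicle control than in the control and lower again with P4, and DDX60 is at the same level in the vehicle control and P4 cultures, under all cultures of the other 2 groups.

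Compared with control cultures in medium alone, P4 cultures had 19 of 32 tested members called lower, 5 higher and 8 not called, where 28.0% and 26.8% of all 16620 genes were called lower and higher. This comparison shares the P4 cultures with the one above, so it is no independent evidence. The median log2 fold change was -0.74 over the members tested and -0.02 over all genes. Members such as SAMD9, BTN3A2 and IFI6 passed the expression filter mainly through the control cultures. These counts and the median are therefore not read as support for a direction. With at least 10 counts asked of every sample, 12 members were called lower and 5 higher. The share of all genes called under that requirement was not determined here, so this count is not read as support either. IFIT1 was at 6.99, 8.71 and 8.25 CPM in the control cultures, and its log2 fold change with P4 was -2.00 (SE 0.21, adjusted p = 3.8e-07). The log2 fold change was -1.25 for IFIT2 (adjusted p = 1.7e-05) and -1.58 for IFIT3 (adjusted p = 2.8e-05). IFI6, an anti-apoptotic protein that could be tested here, had 1.14 ± 0.185 CPM in control and 0.179 ± 0.156 CPM with P4 (SD, n = 3 each; log2 fold change -2.66, SE 0.54, adjusted p = 4.4e-04). Each P4 culture had 3 counts of IFI6 or fewer, so the fitted value depends on the prior count.

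IFI44L had a log2 fold change of -3.07 against the control. For SAMD9 and BTN3A2, with 1 count each over the P4 cultures, the scaled ratio of control to P4 was 46.4 (exact 95% counting interval 8.05 to 1861) and 68.2 (interval 12 to 2722). Another 4 effectors that were not called against the vehicle control, or not tested there, were called lower against the control, namely OASL (log2 fold change -1.14), IFI44 (-1.46), IFITM3 (-0.58) and MX1 (-1.22). The call of IFITM3 was lost without control replicate 2, at a log2 fold change of -0.33, that of MX1 without control replicate 3 or P4 replicate 2 or 3, where its log2 fold change stayed between -1.62 and -0.82, and that of BST2 (log2 fold change -0.90) without control replicate 2 or P4 replicate 2, at its weakest -0.46. Higher against the control were BTN3A3 (1.41), IRF1 (1.06), HERC5 (0.97), PARP14 (0.87) and STAT2 (0.35). The call of PARP14 was lost without control replicate 1 or 2 or P4 replicate 2, with log2 fold changes of 0.72 to 1.03. In DESeq2 the calls of MX1 (adjusted p = 0.116), BST2 (adjusted p = 0.112) and PARP14 (adjusted p = 0.0875) were lost as well. IRF9 was not called here (log2 fold change -0.38, adjusted p = 0.195), nor was IRF7 (0.40, adjusted p = 0.204).

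With the 2 Nap only cultures as the reference, 17 of 31 tested members were called lower and 3 higher, where 24.9% and 24.8% of all 16987 genes were called so. The median over the members was -0.44 on the log2 scale. Members such as SAMD9, BTN3A2 and MX1 passed the expression filter mainly through the Nap only cultures. The counts and this median are therefore not read as support for a direction. DESeq2 called 12 members lower and 3 higher, and 3052 and 3569 of all genes. It did not call IFITM3, MX1, OASL, IFI44 or HERC6, which edgeR called lower. BTN3A3 (1.78), IRF1 (1.30) and HERC5 (0.88) were the 3 members called higher, and without P4 replicate 1 the number was 5. STAT2, at 100.0 and 112 CPM in the Nap only cultures, lay under all P4 cultures but was not called (log2 fold change 0.22, SE 0.09, adjusted p = 0.0643). IFI44L had a log2 fold change of -3.16 against Nap only, and its log2 fold change in vehicle control was 0.12 over control and 0.03 over Nap only. HERC5 had 0.88 against Nap only, and its vehicle control differed by 0.04 from control and -0.04 from Nap only. Thus the differences of IFI44L and HERC5 with P4 were of similar size against references without ethanol. IFIT1 (-1.95), SAMD9 (-4.91) and BTN3A2 (-5.95) were also called lower, the fitted values of SAMD9 and BTN3A2 again set by the prior count.

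Nap with ethanol, without P4, also moved members of the list. In vehicle control against control, 7 of 34 tested members were called lower and 0 higher by edgeR, where 10.7% and 11.9% of all 16673 genes were called so, and at an unadjusted p under 0.05 the member counts were 8 and 3, beside 2999 and 3010 of all genes. DESeq2 called 4 members lower and 0 higher, and 1366 and 1223 of all genes. The median log2 fold change was -0.07 over the members tested, and none of these calls exceeded a log2 difference of 1. Leaving out 1 culture gave 2 to 6 members called lower, with 4 or fewer without control replicate 1, control replicate 3 or any vehicle control culture (2 without vehicle control replicate 3 and 3 without replicate 2).

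DDX60 (chr4:168216293-168318807) differed most clearly, at 8.09, 9.34 and 8.40 CPM in the control and 4.66, 4.50 and 4.83 CPM in the vehicle control. It was lower by a log2 fold change of -0.86 (SE 0.16, adjusted p = 7.1e-04) and kept this call under all 13 alternatives, in 6 of which 1 culture was left out. The Nap only cultures of DDX60, at 6.73 and 10.6 CPM, lay above the vehicle controls, and the P4 cultures lay at the level of the vehicle controls. IFIT1 was lower in the vehicle control by a log2 fold change of -0.71 (SE 0.17, adjusted p = 0.00441), which also held under all alternatives. IFIT2, at 11.9, 11.6 and 13.5 CPM in control, had a log2 fold change of -0.48 (SE 0.13, adjusted p = 0.0139), and IFIT3, at 4.70, 3.96 and 5.47 CPM in control, had -0.82 (SE 0.23, adjusted p = 0.015). Both calls were lost without control replicate 3 or vehicle control replicate 2 or 3, at their weakest -0.41 for IFIT2 and -0.59 for IFIT3.

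DDX58 (log2 fold change -0.30, adjusted p = 0.0274), OASL (-0.87, adjusted p = 0.0319) and TRIM21 (-0.52, adjusted p = 0.0432) completed the 7 members lower in the vehicle control. DDX58 was at 29.9, 27.8 and 30.1 CPM in control, and its P4 level of 27.7 ± 4.71 CPM (SD, n = 3) was not called different from the control (log2 fold change -0.06, adjusted p = 0.688). OASL was at 2.35, 2.22 and 1.80 CPM in control and 1.30, 1.33 and 0.886 CPM in vehicle control. The calls of these 3 were fragile. That of DDX58 was lost without either control replicate 1 or 3 or vehicle control replicate 1 or 3, that of OASL without control replicate 1 or any vehicle control culture, and that of TRIM21 without any one of the 6 cultures. Their log2 fold changes in those fits ranged from -0.39 to -0.27 for DDX58, from -1.03 to -0.67 for OASL and from -0.63 to -0.40 for TRIM21. All 3 calls were also lost in DESeq2 (adjusted p = 0.0562 for DDX58, 0.159 for OASL and 0.132 for TRIM21). With all 4 groups in one fit, DDX58 and TRIM21 lost theirs, and TRIM21 did so with upper-quartile scaling and without the filter too.

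Nap alone moved no member past the test. In Nap only against control, edgeR called 0 of 34 tested members in either direction, and 0 of all 17166 genes (0.00% higher and 0.00% lower). At an unadjusted p under 0.05 the number of members was 0 in each direction, over all genes it was 110 higher and 107 lower, and DESeq2 called 0 members and 1 gene. The log2 fold change of IFIT1 was -0.04 (SE 0.17) and that of DDX60 was 0.03 (SE 0.18). With 2 cultures in one group, these results do not show that the groups were alike.

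In vehicle control against Nap only, where ethanol is the labelled difference, 5 of 34 tested members were called lower and 2 higher, against 11.2% and 12.7% of all 16935 genes. The members called lower were DDX60 (log2 fold change -0.88, SE 0.20, adjusted p = 0.00232), IFIT1 (-0.66, SE 0.17, adjusted p = 0.00869), IFIT3 (-0.75), TRIM21 (-0.62) and DDX58 (-0.33), and those called higher were IRF1 (0.71) and BTN3A3 (0.83). None of these 7 kept its call in every alternative. DDX60 and IFIT1 lost it without Nap only replicate 2, at log2 fold changes of -0.53 and -0.58, and IFIT1 also in DESeq2 (adjusted p = 0.0775). Leaving out 1 culture left 3 to 5 members lower and 0 to 2 higher, with 3 lower without vehicle control replicate 2 or 3 or Nap only replicate 2, and 0 higher without vehicle control replicate 2 or Nap only replicate 2. With vehicle control replicate 3 or Nap only replicate 1 left out, 1 member was higher.

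**Figure D5:**
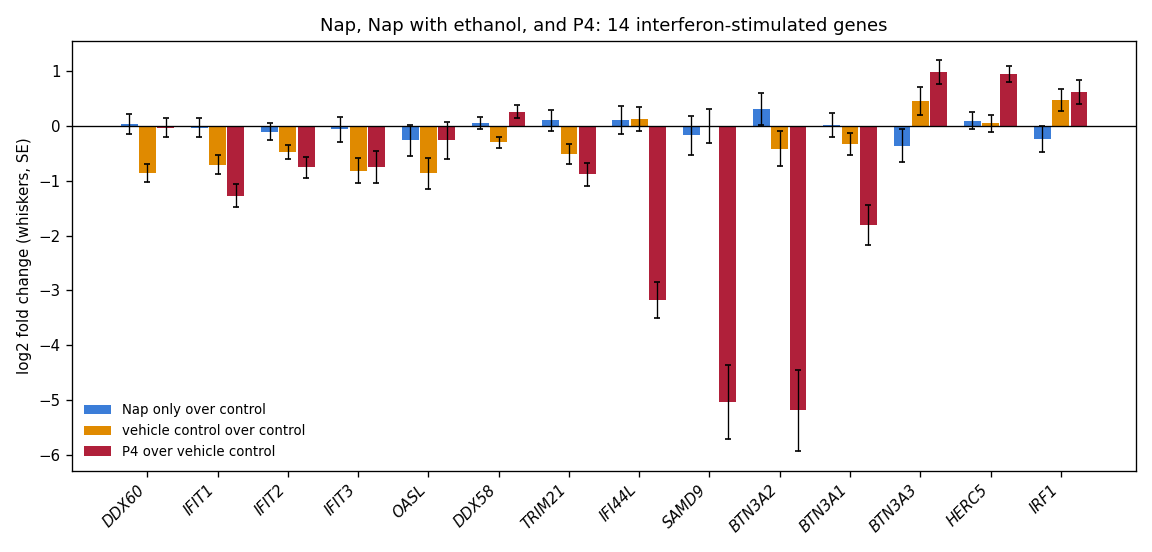
Log2 fold changes with standard errors for 14 members in Nap only over control, vehicle control over control and P4 over vehicle control. DDX60, OASL and DDX58 were called lower in the vehicle control and not with P4, IFIT1, IFIT2, IFIT3 and TRIM21 were called lower in both, and IFI44L, SAMD9, BTN3A2, BTN3A1, BTN3A3, HERC5 and IRF1 were called with P4 and not in the vehicle control, and the bars of SAMD9 and BTN3A2 depend on the prior count.

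The rest of the pathway was examined through lists that share no gene with the members, again for P4 against vehicle control, where 26.6% of all genes tested were called higher and 26.5% lower. Among receptors, kinases and STATs, 10 of 11 were tested, 5 were called higher and 3 lower. JAK1, a kinase of all interferon receptors, rose from 16.0 to 38.6 CPM (log2 fold change 1.26, SE 0.15, adjusted p = 2.0e-05), and IFNGR1, a chain of the type II receptor, rose from 20.5 to 38.7 CPM (0.91, SE 0.10, adjusted p = 1.1e-05). IFNAR1, a chain of the type I receptor, fell from 64.4 to 39.8 CPM (-0.71, SE 0.09, adjusted p = 2.6e-05), and the kinase TYK2 that binds to it went from 63.1 to 53.7 CPM (-0.24, SE 0.07, adjusted p = 0.014).

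Of 20 genes that act in sensing and in the induction of interferon, 18 were tested, 7 were called higher and 7 lower. Over all genes tested, 26.6% were called higher and 26.5% lower. TANK (0.71, SE 0.07, adjusted p = 5.1e-06) and AZI2 (0.68, SE 0.08, adjusted p = 1.8e-05), adaptors of the kinase TBK1, were higher on the log2 scale. TRIM25, a ubiquitin ligase that activates RIG-I, went from 76.6 to 40.6 CPM (-0.93, SE 0.08, adjusted p = 2.9e-06), and IRF3, the factor that TBK1 activates, from 22.1 to 13.4 CPM (-0.72, SE 0.11, adjusted p = 1.3e-04). Among 12 negative regulators, all tested, 3 were called higher, of which PTPN11 (0.48, SE 0.06, adjusted p = 4.9e-05) and TRIM24 (0.50, SE 0.08, adjusted p = 2.6e-04) had the smallest p, and the phosphatase PTPN6 was called lower (-0.46, SE 0.11, adjusted p = 0.00359).

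A list of 43 other ISGs had 24 tested genes, of which 3 were called higher and 8 lower, with a median log2 fold change of -0.17 and beside the shares of 26.6% and 26.5% over all genes. ZC3HAV1, the zinc-finger antiviral protein, went from 91.9 to 35.8 CPM (-1.37, SE 0.12, adjusted p = 1.8e-06), and TRIM5, which restricts retroviral capsids, went from 28.9 to 18.7 CPM (-0.64, SE 0.09, adjusted p = 8.5e-05). NT5C3A, a nucleotidase, rose from 20.2 to 36.4 CPM (0.86, SE 0.10, adjusted p = 1.5e-05), and PNPT1, a mitochondrial exonuclease, from 67.0 to 81.4 CPM (0.28, SE 0.08, adjusted p = 0.00744). Both directions occurred in each of these 4 lists, and none of the lists was tested as a set.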

How the data were processed

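Total RNA of 17 Ishikawa cultures was sequenced. As the study's methods state, reads were trimmed (Cutadapt), quality-filtered and mapped with Subread, unique hits being kept. The raw gene counts that the authors deposited came from featureCounts and GENCODE release 31. Versions and the strand setting are not given in the sources used here, so reads of overlapping and antisense genes may not be separated. All columns were mapped to samples (0 unused).

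Counts were modelled with edgeR 4.0.16 (R 4.3.3), TMM scaling, filterByExpr at a minimum count of 10 and robust quasi-likelihood fits that held only the groups compared. P-values were adjusted by Benjamini-Hochberg over all genes tested and called under 0.05, and SE is the log2 fold change over the square root of F. In a simulation of P4 against vehicle control over 16483 genes, 90.7% of genes changed by a log2 of 1 and 98.9% of those changed by 2 were called. The changed genes were drawn only from those above a minimum expected count, and all genes had one dispersion of 0.02. These shares therefore do not apply to members with few counts. No pair of replicates agreed within sampling noise (chi-square per degree of freedom 1.54 to 20.6). P-values set a difference between groups against the spread between these cultures of one line, estimated with information shared over genes.

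Names and positions came from GENCODE 29 on GRCh38 and promoters from RefSeq GRCh38.p14, where DDX58 is listed as RIGI. Values per culture are given for members called in P4 against vehicle control beyond a log2 difference of 1, for the transcription factors and sensors, and for up to 6 members with the smallest adjusted p in vehicle control against control. The other members are named because every member is accounted for, and some of them have values per culture that were added after their results were seen. Each pathway list gives up to 2 called genes per direction. A further result is not reported here. The members and lists were chosen with earlier results of these data known. Alternatives were DESeq2 1.42.0, RLE and upper-quartile scaling, omitting the filter, asking at least 10 counts of each sample, a single fit of all 4 groups, a replicate block, and leaving each culture out. Figures and tables used Python 3.11.15 and pandas 2.3.3.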

Additional observations from a re-analysis of the deposited data

Results flagged for a closer look

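The 6 cultures with recombinant PSAT1 have no group because their titles and column headers contradict each other on P4. In them, 3 members passed a set margin above the highest control culture in at least 3 libraries. Smaller excesses were not flagged, such as that of STAT2, which reached 129 CPM where the highest control culture had 105 CPM. IRF1 reached 6.96 CPM or more in 3 of these 6 libraries, where the highest control culture had 4.32 CPM. HERC5 reached 15.5 CPM or more in 3 of the 6, above the highest control culture at 9.67 CPM. BTN3A3 reached 4.22 CPM or more in 3 of the 6, above the highest control culture at 2.40 CPM. These libraries were used in no comparison, and the differences were not tested.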

How the results depend on the processing

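In P4 against vehicle control, 13 of the 19 called members kept their call under all alternatives and none changed sign. IFIT3, IFITM2, ADAR, IRF9, IRF1 and HERC6 lost it under at least 1, all but ADAR in DESeq2 among others. DESeq2 called 12 members lower and 3 higher, beside 3298 and 3925 of all genes. Upper-quartile scaling moved the median of all genes to -0.10 and gave 16 members lower and 3 higher. That scaling called 8847 of all 16540 genes, 3603 of them higher, so calls over all genes leaned lower as well. Leaving out 1 culture gave 10 to 16 members lower and 3 to 5 higher, beside 7083 to 9953 of all genes called in either direction. Of the other counts, P4 against control had 12 lower when at least 10 counts were asked of every sample (17 to 20 lower and 4 to 5 higher leaving out 1 culture), which tests fewer genes. P4 against Nap only had 5 higher with all 4 groups in one fit (3 to 5 higher and 12 to 18 lower leaving out 1 culture). Vehicle control against control had 4 lower by DESeq2, beside 1366 of all genes (2 to 6 leaving out 1 culture). Vehicle control against Nap only had 0 higher and 1 lower by DESeq2, beside 1070 and 1058 of all genes. It had 1 higher without a filter, and 0 higher and 2 lower with all 4 groups in one fit (0 to 2 higher and 3 to 5 lower leaving out 1 culture). Counts given here without a number over all genes describe only how stable the calls were. The cause of these shifts was not tested. Where 1 culture of 2 was left out, the lone culture was assumed to vary like the other group.

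Replicate numbers did not establish a pairing. Deviations of same-numbered cultures correlated at 0.0403, 0.0511 and -0.0416 between P4 and vehicle control over 15656 genes, and at 0.307 and 0.351 between Nap only and control, with only 2 pairs. A replicate block gave 14 members lower and 5 higher in P4 against vehicle control, beside 8934 of all genes called, 4454 of them higher. The calls of IFIT3 and IRF9 were lost under it, and DDX58 and IFI44 were called. Most members had few counts per culture, and the depth limits which differences could be detected.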

Other observations

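In the libraries with no group, some members fell into separate clusters of 3, which are given by their column headers without assigning a treatment. IFI44L was at 0.392, 0.453 and 0.103 CPM in the 3 libraries whose header names PSAT1_P4, and at 4.36, 5.91 and 4.25 CPM in the 3 whose header names PSAT1. The titles of the same samples name the opposite condition. IFIT1 was at 1.18, 1.36 and 1.24 CPM in the former and 9.11, 7.72 and 7.18 CPM in the latter, and DDX60 at 3.53, 4.71 and 4.76 CPM against 7.63, 7.05 and 6.28 CPM. BTN3A2 was at 0.196, 0 and 0.310 CPM against 2.05, 1.54 and 1.97 CPM, and SAMD9 at 0.196, 0.272 and 0.103 CPM against 0.706, 1.48 and 1.02 CPM. The members that reached higher values showed the same split, with IRF1 at 6.96, 11.4 and 10.1 CPM against 3.27, 2.75 and 2.81 CPM, HERC5 at 16.4, 15.5 and 17.0 CPM against 8.34, 9.33 and 7.90 CPM, and BTN3A3 at 4.22, 4.98 and 6.00 CPM against 1.92, 1.95 and 1.79 CPM. STAT2 did not divide as widely, at 110.0, 128 and 129 CPM against 96.0, 108 and 93.8 CPM. Other members overlapped between the header sets, such as USP18 at 1.08, 1.54 and 1.97 CPM against 1.67, 1.34 and 2.09 CPM, IRF7 at 2.65, 2.36 and 1.14 CPM against 1.03, 2.69 and 2.03 CPM, and PARP12 at 1.86, 1.54 and 2.07 CPM against 1.03, 1.88 and 1.67 CPM. The members shown were chosen after their values were seen.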
